A study of Mus musculus with 22 samples.

Results

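The genes described here are 37 known markers of the cells that build the blood vessels of the brain, 24 of them of endothelium, 5 of pericytes, 3 of smooth muscle, and 5 of fibroblasts and the vascular matrix. They were chosen by name from what is known of these cells, with no threshold on any value measured in these mice. All 37 were found once among the 37786 genes of the table, and all 37 passed the count minimum of at least 10 counts in at least 10 mice, as did 17524 genes in all.

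RNA was sequenced from whole anterior cingulate cortex (ACC) samples of 22 male wild-type C57BL/6J mice, which were 8 weeks old when the procedures began. Every mouse, controls included, carried the same virus in the basolateral amygdala (BLA) on both sides, an AAV5 in which the CaMKIIa promoter drives ChR2(H134R)-EYFP, a light-gated channel, mostly in excitatory neurons, and an optic fibre implanted into the ACC on one side. In 10 stimulated mice blue light was pulsed at 10 Hz in 10 ms pulses for 20 min a day, on 3 days a week for 3 weeks, which gives 9 sessions, while 12 control mice went through the same steps with the light off. The ACC of both sides was taken fresh 48 h after the last session, so that tissue of the side without a fibre is part of each sample. The question is whether repeated activation of the BLA-ACC pathway moved the RNA of vascular cells in the ACC.

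Endothelial cells line the vessels and, in the brain, close them with tight junctions and carry transporters that decide what passes between blood and tissue, which is the blood-brain barrier. Pericytes lie along capillaries in a shared basement membrane and are held there by PDGF signalling from the endothelium. Smooth muscle cells wrap arterioles and arteries and set their diameter. Fibroblasts sit around larger vessels and in the meninges, the sheets that cover the cortex, and lay down collagens and small proteoglycans. In bulk tissue, fewer cells of a type and less RNA per cell cannot be told apart.

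Total counts ran from 24563116 to 36542883 in controls and from 23090483 to 43668462 in stimulated mice. The library numbers of the labels form a first run, 1 to 11, with 6 controls and 4 stimulated mice, and a second run, 12 to 23, with 6 and 6. The study used 2 batches of animals, but the labels do not say that a run is a batch, so the run stood in for it. Mitochondrial genes took 1.63% to 4.81% of the counts in the first run and 0.982% to 1.90% in the second. In 1 control, replicate 9, the summed level of 10 oligodendrocyte markers was 19856 CPM (counts-per-million, the counts of a gene scaled to the total of its library), where the median of controls was 5163 CPM, and leaving that mouse out left 2 vascular genes at an unadjusted p under 0.05 and 0 at an adjusted one, as with all mice.

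The markers of each of these cell types were present in every mouse. On the scale of CPM per kilobase of exon, which allows genes to be compared, mean levels over the 22 mice were highest for Itm2a, a membrane protein gene rich in brain endothelium (94.9 ± 24.2, SD), Vtn, which encodes vitronectin and in brain is made by pericytes (62.5 ± 11.5), Cldn5, the main claudin of the tight junctions (59.3 ± 14.7), and Slc2a1, the glucose transporter GLUT1 (47.0 ± 6.73). The lowest were Anpep, a membrane peptidase of pericytes (0.56 ± 0.30), Tagln, which encodes the actin-binding transgelin (0.76 ± 0.38), and Abcc9, a subunit of pericyte potassium channels (0.76 ± 0.47). Among the tight-junction and transport genes of the barrier, Slco1c1, a carrier of thyroid hormone, stood at 21.9 ± 5.18 CPM per kilobase, Mfsd2a, a lipid carrier, at 24.0 ± 3.78, and Ocln, which encodes occludin, at 4.37 ± 1.08. Pdgfrb, the receptor through which pericytes are recruited, had 6.00 ± 2.93 CPM per kilobase, Acta2, smooth muscle actin, had 28.2 ± 16.6, and Dcn, the proteoglycan decorin of fibroblasts, had 5.37 ± 2.32. These levels carry the difference between the runs described below, so that Pdgfrb stood at 3.06 CPM per kilobase in the first run and 8.45 in the second, and Cldn5 at 70.2 and 50.1. The order of the genes changes with the run too. In the first run Ly6c1 and Ly6a, at 57.2 and 55.4 CPM per kilobase, stood above Slc2a1, at 42.0, and Col1a1 and Vwf, at 0.58 and 0.68, stood below Tagln, at 0.82. At least 5% of the exon bases of 4 of the 37 genes are shared with another gene in the annotation, with Tagln at 62.4%, Sox17 at 16.8% and Abcb1a at 10.1% on the opposite strand and Egfl7 at 7.37% on its own, and the library kit does not mark strand, so reads there cannot be assigned to one gene.

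The promoters of a gene for each of endothelium, pericytes and smooth muscle are given here because Cldn5 marks the first, Rgs5 had the smallest p between the groups, and Acta2 had the largest SD between mice once group and run means were taken out. Each window runs from 250 bases before to 50 bases after the start site in RefSeq, on build GRCm38.p6, and is written 5' to 3' on the strand of the gene. Capitals mark matches on either strand to 3 common promoter motifs. The CCAAT box was searched by the letters of its name. For the GC box, which binds Sp1 factors, the letters were GGGCGG. For the TATA box, which positions the transcription machinery, they were TATAAA.
Cldn5, chr16:18776597-18776896, + strand: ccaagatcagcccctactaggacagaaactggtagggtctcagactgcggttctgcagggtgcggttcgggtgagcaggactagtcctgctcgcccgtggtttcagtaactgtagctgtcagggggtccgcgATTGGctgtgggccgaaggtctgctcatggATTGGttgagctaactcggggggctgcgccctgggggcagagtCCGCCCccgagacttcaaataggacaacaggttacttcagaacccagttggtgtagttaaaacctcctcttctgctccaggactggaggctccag
Rgs5, chr1:169655251-169655550, + strand: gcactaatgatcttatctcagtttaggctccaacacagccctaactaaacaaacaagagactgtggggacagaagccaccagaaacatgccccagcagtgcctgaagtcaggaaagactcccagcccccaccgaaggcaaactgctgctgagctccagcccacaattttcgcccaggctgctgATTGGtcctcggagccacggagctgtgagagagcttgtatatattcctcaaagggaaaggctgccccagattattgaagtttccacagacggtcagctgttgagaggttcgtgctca
Acta2, chr19:34255324-34255623, - strand: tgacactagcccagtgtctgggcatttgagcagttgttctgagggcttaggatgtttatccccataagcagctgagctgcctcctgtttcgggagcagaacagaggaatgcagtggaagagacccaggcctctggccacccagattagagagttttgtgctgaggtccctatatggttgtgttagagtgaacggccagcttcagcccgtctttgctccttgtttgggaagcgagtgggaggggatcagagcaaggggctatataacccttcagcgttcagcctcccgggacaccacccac
The Cldn5 window holds 2 CCAAT boxes and 1 GC box, the Rgs5 window 1 CCAAT box, and the Acta2 window no match to any of these letters. The 24 vascular genes that matched the table have 30 windows, of which 11 (36.7%) hold a CCAAT box, 14 (46.7%) a GC box and 7 (23.3%) a TATA box. Over all 32851 windows of that length the shares are 37.4%, 35.7% and 13.6%. The CArG box, the recognition motif of serum response factor, which regulates smooth muscle genes, had no exact match in any of the 30 windows of these 24 genes, and 1.63% of all windows hold it. Of the 3 smooth muscle genes only Acta2 has a window there, Tagln and Myh11 not being matched. Only exact letters were counted, so a window with no match can still hold a variant of a motif. In the Acta2 window, ccctatatgg and ccttgtttgg each differ by 1 base from the CArG box and were not counted. Such matches describe letters in a window and were not set against any binding data.

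Between stimulated and control mice, none of the 37 vascular genes passed the test once p-values were adjusted. In edgeR's quasi-likelihood fit with the run as a covariate, 0 of 37 had an adjusted p under 0.05, beside 0% of all genes tested. At an unadjusted p under 0.05 there were 2, both lower in stimulated mice, which is 5.41% of the 37 beside 11.5% of all genes, or 5.45% when lower genes alone are counted and 6.05% when higher ones are. Of the 37 log2 fold changes, 27 were below 0 and 10 above it, with a median of -0.069 where the median of all genes was 0.0093. Over all genes 47.4% were below 0. The count of 27 changes with the terms of the fit and the count minimum. With at least 10 counts in every mouse 31 were below 0, and with group alone 18 were below 0 and 19 above it, with a median of 0.0018 and 0 of 37 at an unadjusted p under 0.05, beside 3.61% of all genes. The DESeq2 Wald test with the same terms gave 0 of 37 at an adjusted p under 0.05, beside 0.188% of all genes (33 genes), and 2 of 37 at an unadjusted one, beside 12.5%. In the edgeR fit with the run as a covariate, no 95% interval of any of the 37 reached past a 1.85-fold difference in either direction, the widest being that of Myh11.

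**Figure D1:**
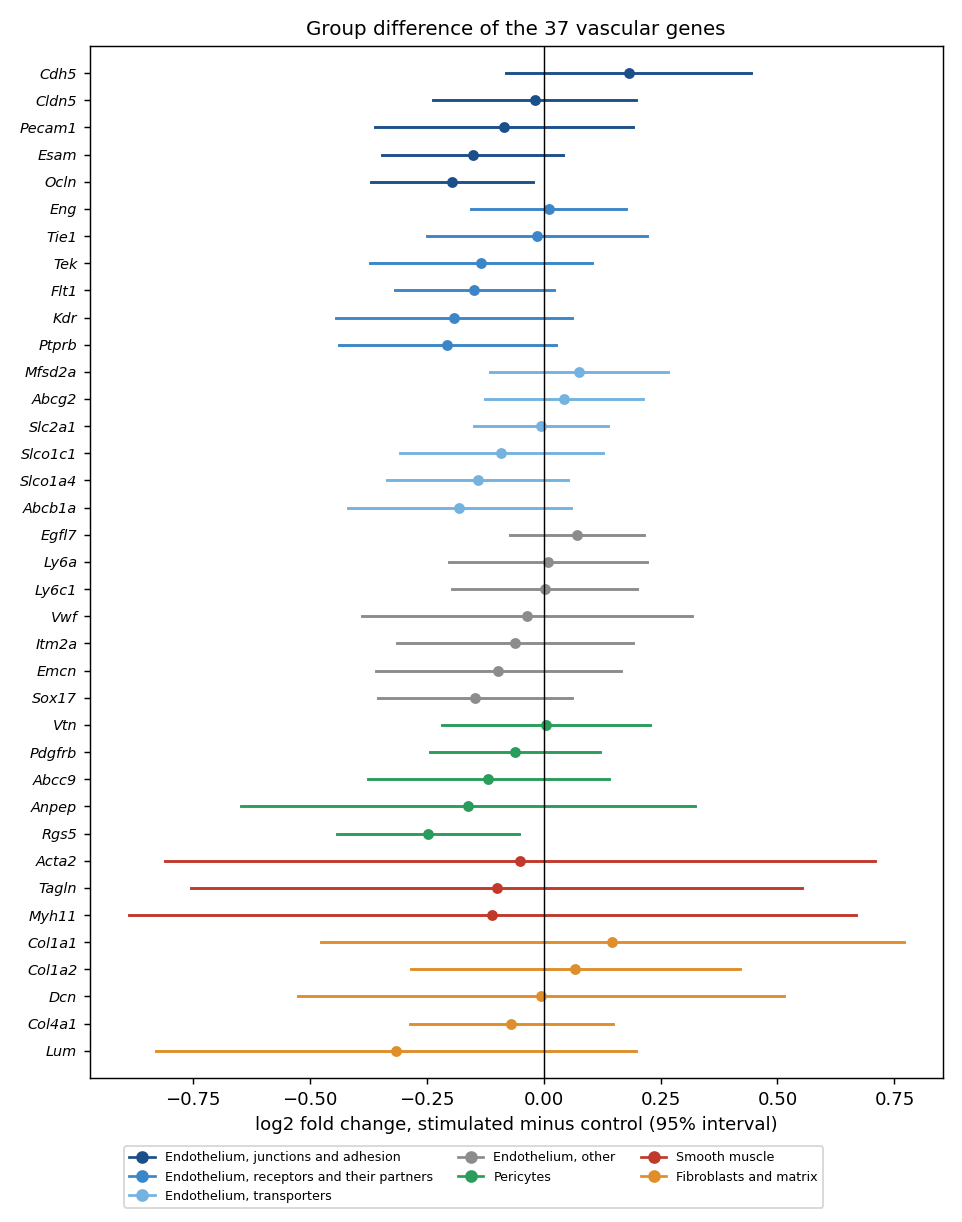
Log2 fold change of each of the 37 vascular genes, stimulated minus control, with its 95% interval from the edgeR fit that has the run as a covariate, ordered by role. Only the intervals of Ocln and Rgs5 leave out 0, and those of the 3 smooth muscle genes are the widest of any role.

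The genes of the junctions between endothelial cells had small differences. Cldn5 ranged in controls from 51.9 CPM over a median of 85.2 to 129.7, and in stimulated mice from 55.0 over 82.3 to 116.6. The groups overlapped over nearly all of this range, with a log2 fold change of -0.02 ± 0.11 (SE; edgeR, p = 0.859, adjusted p = 0.962). Ocln had the smallest p of this role. It ranged from 12.1 over 19.8 to 25.5 CPM in controls and from 11.9 over 16.8 to 23.3 CPM in stimulated mice. The 4 stimulated mice of the first run had 12.1, 13.9, 13.3 and 11.9 CPM, the last below all 6 controls of that run and the others in the lower part of their range, while in the second run 4 of 6 stimulated mice, at 21.6 to 23.3 CPM, were within the range of its controls, 21.4 to 25.5 CPM, and 2 were below it. The log2 fold change was -0.20 ± 0.08 (edgeR, p = 0.0288, adjusted p = 0.388), a fold of 0.873 with a 95% interval from 0.774 to 0.985. Esam and Pecam1, adhesion molecules of the endothelial surface, had log2 fold changes of -0.15 ± 0.09 and -0.08 ± 0.13. Cdh5, the cadherin that joins endothelial cells, was the one junction gene with a value above 0, at 0.18 ± 0.13.

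Receptors through which endothelium reads growth factors, with their partners, had values below 0 in 5 of 6 genes and no adjusted p under 0.05. With group alone 2 of the 6 were below 0, with a median of 0.08. Ptprb, the phosphatase that holds the angiopoietin receptor in check, had the smallest p among them. Its level ranged from 22.9 over 44.3 to 80.0 CPM in controls and from 16.0 over 46.5 to 83.4 in stimulated mice (log2 fold change -0.21 ± 0.11, edgeR, p = 0.0803, adjusted p = 0.487). Within the first run 3 of its 4 stimulated mice, at 20.9, 16.0 and 21.8 CPM, were below all 6 controls, at 22.9 to 33.7 CPM, and the other was at 24.5 CPM. In the second run the stimulated mice, at 36.8 to 83.4 CPM, enclosed the range of controls, 54.9 to 80.0 CPM. Kdr and Flt1, the receptors for VEGF, had log2 fold changes of -0.19 ± 0.12 and -0.15 ± 0.08. Tek, the angiopoietin receptor, had -0.13 ± 0.12, its relative Tie1 -0.01 ± 0.11, and Eng, the TGF-beta co-receptor endoglin, 0.01 ± 0.08. With all mice in the fit, none of these 6 differences had an unadjusted p under 0.05 either, beside 11.5% of all genes.

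Transporters of the barrier were the most tightly measured of the roles, with a median SD between mice of 0.23 on the log2 scale, and again none passed. Abcb1a, the efflux pump P-glycoprotein, had the smallest p. It ranged from 10.7 over 18.1 to 28.6 CPM in controls and from 8.13 over 17.9 to 32.2 in stimulated mice (log2 fold change -0.18 ± 0.12, edgeR, p = 0.131, adjusted p = 0.544). Slco1a4 and Slco1c1, carriers of organic anions and thyroid hormone, had values of -0.14 ± 0.09 and -0.09 ± 0.11 on the log2 scale. Slc2a1 stood at 163.9 ± 25.8 CPM (SD, n = 12) in controls and 165.5 ± 22.0 CPM (SD, n = 10) in stimulated mice, and its 95% interval of the log2 fold change, -0.15 to 0.14, is among the narrowest of the 37. Abcg2, a second efflux pump, and Mfsd2a had log2 fold changes of 0.04 ± 0.08 and 0.08 ± 0.09.

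The 7 other endothelial genes had log2 fold changes between -0.15 and 0.07. Sox17, a transcription factor of arterial endothelium, had the smallest p of them. It ranged from 7.50 over 11.6 to 14.2 CPM in controls and from 8.44 over 9.97 to 12.7 in stimulated mice, all of them inside the control range (log2 fold change -0.15 ± 0.10, edgeR, p = 0.156, adjusted p = 0.569). Ly6c1 and Ly6a, surface proteins of the Ly6 family, and Egfl7, a protein secreted by endothelium, had 0.0027 ± 0.10, 0.0093 ± 0.10 and 0.07 ± 0.07. Emcn, a sialomucin of veins and capillaries, Itm2a, and Vwf, the clotting factor of larger vessels, had -0.10 ± 0.13, -0.06 ± 0.12 and -0.04 ± 0.17.

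Of the 5 pericyte genes, Rgs5 had the smallest p of all 37. It encodes a regulator of G protein signalling by which pericytes are often recognised. In controls it ranged from 33.5 over 55.8 to 70.3 CPM, and in stimulated mice from 35.9 over 46.3 to 61.5 CPM. In the first run the 4 stimulated mice had 40.1, 37.3, 38.3 and 35.9 CPM, lower than 5 of the 6 controls there, which ran from 33.5 to 69.8 CPM. In the second run stimulated mice ran from 43.1 to 61.5 CPM and controls from 53.0 to 70.3. The log2 fold change was -0.25 ± 0.09 (edgeR, p = 0.0147, adjusted p = 0.353), a fold of 0.842 with a 95% interval from 0.736 to 0.964. It stayed at an unadjusted p under 0.05 in all 22 fits that left out 1 mouse each, the lowest adjusted p of these being 0.216, whereas Ocln did so in 15 of 22. Pdgfrb, the defining marker, ranged from 15.1 over 29.6 to 54.0 CPM in controls and from 11.7 over 38.9 to 65.7 in stimulated mice, with a log2 fold change of -0.06 ± 0.09 (edgeR, p = 0.492, adjusted p = 0.817). Vtn, Abcc9 and Anpep had 0.0046 ± 0.11, -0.12 ± 0.13 and -0.16 ± 0.24.

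**Figure D2:**
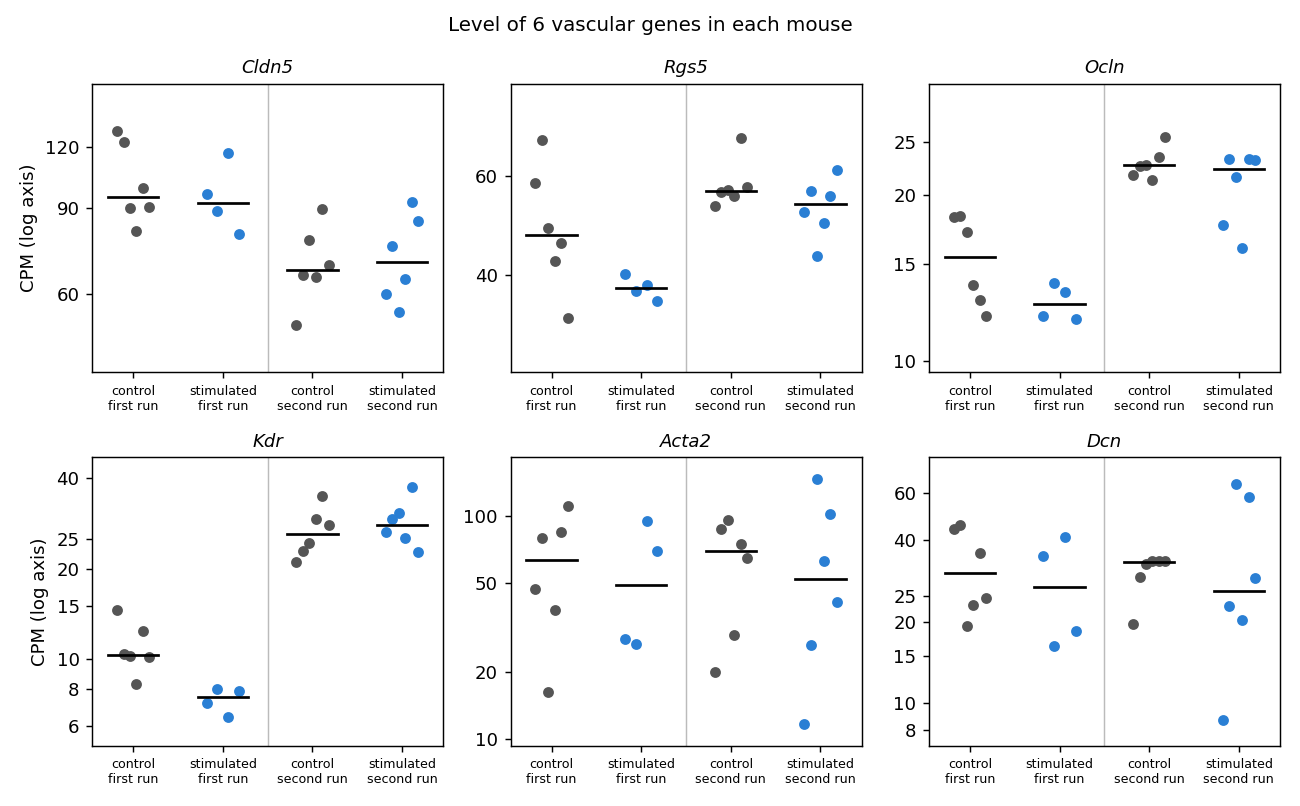
Level in CPM, on a log axis, of Cldn5, Rgs5, Ocln, Kdr, Acta2 and Dcn in each mouse, 1 point a mouse, for controls (grey) and stimulated mice (blue) of the first and second run, with a bar at each median. Kdr separates by run, at 6.47 to 14.6 CPM in the first and 21.1 to 37.4 CPM in the second, while Acta2 spreads from 11.6 to 147 CPM without separating by group or run.

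Smooth muscle and fibroblast genes varied far more between mice than between groups. Acta2 ranged from 16.2 over 70.0 to 111.3 CPM in controls and from 11.6 over 52.1 to 147.3 CPM in stimulated mice, a spread of 12.7 times over all mice. Its log2 fold change was -0.05 ± 0.37 (edgeR, p = 0.893, adjusted p = 0.971), and the 95% interval, from -0.81 to 0.71, spans folds of 0.571 to 1.63. Tagln, which had the smallest p of this role, stood at 0.65 to 2.64 CPM in controls and 0.37 to 2.83 in stimulated mice (log2 fold change -0.10 ± 0.32, edgeR, p = 0.754, adjusted p = 0.929), on 11 to 86 counts a mouse. Myh11, the myosin heavy chain of smooth muscle, had -0.11 ± 0.38. Dcn ranged from 19.2 over 33.2 to 45.5 CPM in controls and from 8.71 over 26.0 to 64.9 in stimulated mice, the stimulated range enclosing that of controls (log2 fold change -0.0054 ± 0.25, edgeR, p = 0.983, adjusted p = 0.996). Lum, the related proteoglycan lumican, had the smallest p of the fibroblast and matrix genes, with 4.79 over 9.89 to 16.3 CPM in controls, 2.25 over 7.77 to 20.5 in stimulated mice and a log2 fold change of -0.32 ± 0.25 (edgeR, p = 0.216, adjusted p = 0.634). The collagen genes Col1a1, Col1a2 and Col4a1, the last a component of the vascular basement membrane, had 0.15 ± 0.30, 0.07 ± 0.17 and -0.07 ± 0.11.

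The group difference was also taken within each run, on 6 controls and 4 stimulated mice, and on 6 and 6. In the first run 32 of 37 values were below 0 (median -0.13), where 48.8% of all genes were (median 0.0048), and 3 had an unadjusted p under 0.05, beside 5.56% of all genes. In the second run 18 were below 0 (median 0.0033), where 50% of all genes were, and 2 had an unadjusted p under 0.05, beside 12.4%. In neither run did any of the 37 have an adjusted p under 0.05 in these edgeR fits, beside 0 of all 17524 genes in each. Rgs5 had values below 0 in both, -0.37 ± 0.16 and -0.17 ± 0.09. The genes taken up next, Kdr, Ptprb, Cdh5 and Sox17, are described further because of these values. Kdr had 7.15, 7.96, 6.47 and 7.83 CPM in the stimulated mice of the first run, all below its 6 controls, which ran from 8.32 over 10.3 to 14.6 CPM. In the second run stimulated mice had 22.7 over 27.8 to 37.4 CPM and controls 21.1 over 26.0 to 34.9, overlapping almost completely. The log2 fold changes of Kdr were -0.57 ± 0.15 in the first run (edgeR, p = 0.00227, adjusted p = 0.799) and 0.07 ± 0.13 in the second (p = 0.616, adjusted p = 0.869).

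A test of the difference between these differences, the product of group and run, had an unadjusted p under 0.05 for Kdr alone among the 37, beside 8.01% of all genes. Its value was 0.69 ± 0.21 on the log2 scale (edgeR, p = 0.00294, adjusted p = 0.545), which does not pass after adjustment. Ptprb had a log2 fold change of -0.37 ± 0.14 in the first run and -0.10 ± 0.15 in the second, and the test of the difference between them did not pass (edgeR, interaction p = 0.172, adjusted p = 0.766). Cdh5 went from 6.66 over 7.71 to 9.25 CPM in second-run controls to 7.91 over 10.2 to 12.3 in second-run stimulated mice (log2 fold change 0.35 ± 0.13, edgeR, p = 0.0182, adjusted p = 0.321), while in the first run it was -0.07 ± 0.21. For Sox17 the second run gave -0.28 ± 0.12 (edgeR, p = 0.0279, adjusted p = 0.355) and the first -0.0093 ± 0.17.

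**Figure D3:**
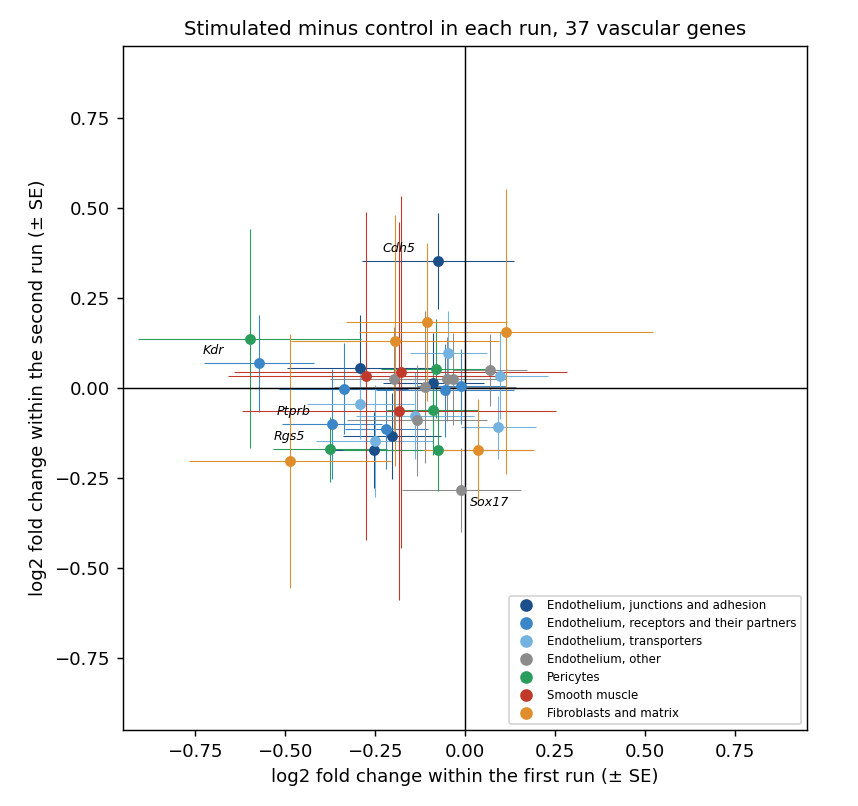
Log2 fold change of each of the 37 vascular genes, stimulated minus control, within the first run (horizontal) and within the second run (vertical), with SE bars, coloured by role. Points lie mostly left of 0 (32 of 37) and on both sides of 0 vertically (18 below), and Kdr lies far left at -0.57 while near 0 vertically at 0.07.

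Between the runs of library numbers most of the 37 genes differed. With group held in the fit, 30 of 37 had an adjusted p under 0.05 between the second and first run, 81.1% beside 68.1% of all genes. Of these, 23 rose in the second run, beside 33.7% of all genes, and 7 fell, beside 34.3%. The median log2 difference of the 37 was 0.52, where that of all genes was -0.030. In 14 of the 37 the levels of the runs did not overlap, 11 being higher and 3 lower in the second, beside 26.1% of all genes with no overlap. Vwf rose from 5.74 to 16.5 CPM in the 10 first-run mice to 21.7 to 73.3 CPM in the 12 second-run mice, a fold of 4.39 (log2 2.13 ± 0.18, edgeR, adjusted p = 1.07e-10). Abcc9 rose 4.22 times (2.08 ± 0.13), and among the collagens and receptors, Col1a1 rose by 1.76 ± 0.32, Kdr by 1.57 ± 0.13, Tek by 1.51 ± 0.12, Col4a1 by 1.51 ± 0.11 and Pdgfrb by 1.47 ± 0.09 on the log2 scale. Myh11 rose by 1.65 ± 0.39, while Acta2, the other abundant smooth muscle gene, had 0.10 ± 0.37 and did not pass (edgeR, adjusted p = 0.827). In the other direction, Ly6c1 went from 77.3 to 126.2 CPM in the first run to 38.5 to 65.9 in the second, with no overlap (-0.87 ± 0.10, edgeR, adjusted p = 1.14e-08). Ly6a had -0.83 ± 0.10, Egfl7 -0.66 ± 0.07, Emcn -0.49 ± 0.13, Cldn5 -0.48 ± 0.11, Itm2a -0.34 ± 0.12 and Abcg2 -0.19 ± 0.08, each with an adjusted p under 0.05. Markers of 1 cell type thus moved in opposite directions, with endothelial genes at 14 higher and 7 lower.

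The run difference of a vascular gene went with the length of its transcript. Across the 37 genes, which share all libraries and so are not independent, Spearman's rho between the run difference and the length of the longest transcript was 0.800, and with the union of exons it was 0.685, where over 17516 genes it was 0.672 and 0.617. Within the 24 endothelial genes it was 0.796 with the longest transcript, and within the 13 mural, fibroblast and matrix genes 0.907. All 5 vascular genes with exons under 2 kilobases were lower in the second run, 4 of them past the test, and 6 of the 7 with exons of 8 kilobases or more were higher, all 6 past it. The exception among the long ones was Abcg2. Over all genes, 3012 of 3356 under 2 kilobases were lower, 2399 of them past the test, and 2224 of 2712 of 8 kilobases or more were higher, 1865 of them past it. The group difference had a rho of -0.219 with the longest transcript in the 37 genes, and -0.164 over all genes. It was -0.433 within the 24 endothelial genes and 0.044 within the 13 others. The study reports the RNA integrity and batch of its samples in a supplement that was not used here, and the part of RNA integrity in the run difference was not tested.

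**Figure D4:**
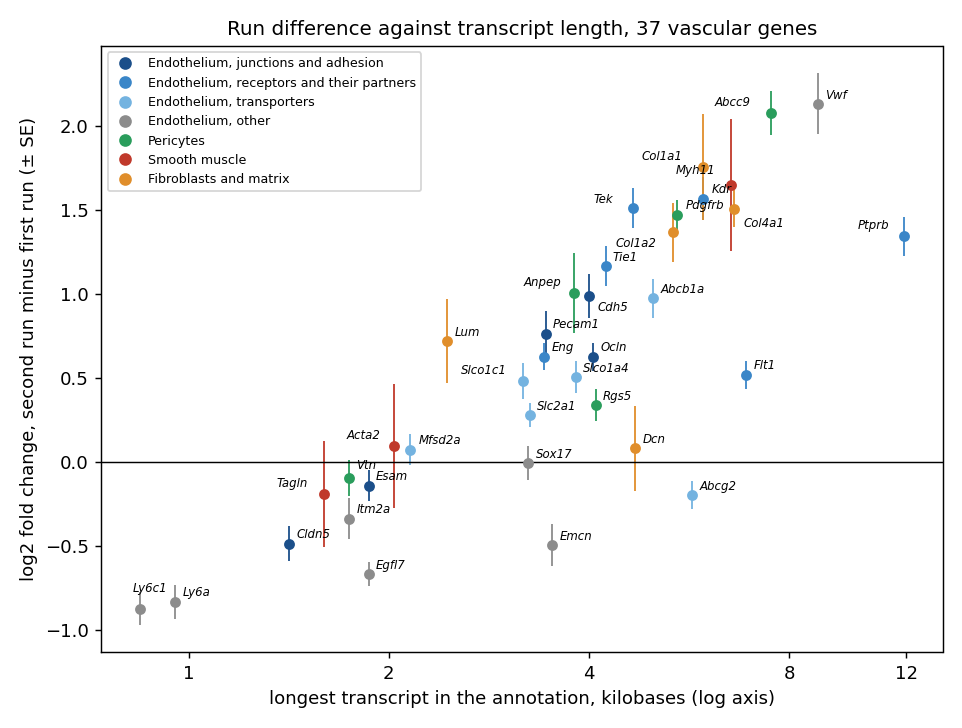
Log2 difference between the second and first run (± SE) against the length of the longest annotated transcript in kilobases, on a log axis, for the 37 vascular genes, coloured by role. Short genes such as Ly6c1 (-0.87) and Cldn5 (-0.48) lie below 0 and long ones such as Vwf (2.13) and Abcc9 (2.08) far above it.

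Beyond group and run, the median spread between mice was larger for smooth muscle genes and for fibroblast and matrix genes than for those of endothelium and pericytes. After the mean of its group and run had been taken out of each log2 CPM, the median SD between mice was 0.25 for endothelial genes, 0.28 for pericyte genes, 1.08 for smooth muscle genes and 0.70 for fibroblast and matrix genes, where the median over all genes was 0.25. The steadiest were Slc2a1 and Egfl7, both 0.16, and the most variable Acta2 and Myh11, both 1.08, followed by Col1a1 at 0.86, Tagln at 0.83, Lum at 0.71 and Dcn at 0.70. The other matrix genes, Col4a1 at 0.26 and Col1a2 at 0.45, were within the range of the endothelial genes. Vwf, at 0.48, was the most variable endothelial gene, and Anpep, at 0.54, the most variable pericyte gene. Smooth muscle genes stood on average at -1.85 in stimulated mouse 5, -1.28 in control 3 and -1.15 in control 7 relative to the mean of their group and run, and at 1.62 in stimulated mouse 7 and 1.21 in stimulated mouse 9, on the log2 scale. Fibroblast and matrix genes stood in the same mice at -1.23, -0.60, -0.42, 0.99 and 0.86, and endothelial genes at -0.26, -0.03, -0.16, -0.05 and 0.34. Without stimulated mouse 7 the log2 fold change of Acta2 between the groups was -0.28 and that of Myh11 -0.40, and Lum and Dcn had -0.47 and -0.17, none of them at an unadjusted p under 0.05. These were the lowest values of the 22 fits that left out 1 mouse each. The highest were 0.06 for Acta2, 0.01 for Myh11, -0.20 for Lum and 0.10 for Dcn.

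Smooth muscle genes varied together across mice, as did fibroblast genes. Over 22 mice, with group and run means taken out and p from permutations of mice within group and run, 13 pairs were computed. The plan gave correlations as a description with no p, so these tests were outside it. Acta2 and Myh11 had Pearson's r of 0.968 and Spearman's rho of 0.963 (permutation test, adjusted p = 2.6e-05 and 4.33e-05), with 0.980 when the 2 mice farthest from the median of Acta2 were left out, and 0.938 and 0.988 within the first and second run. Acta2 with Tagln had 0.921 and Tagln with Myh11 0.878, at permutation p of 1e-05, which is the smallest that 100000 permutations can give. Among fibroblast genes, Dcn and Col1a2 had r of 0.915 and rho of 0.905 (permutation test, adjusted p = 2.6e-05 and 5.2e-05), with 0.889 without the 2 farthest mice and 0.926 and 0.921 within runs. Dcn with Col1a1 had 0.911, Dcn with Lum 0.877 and Col1a1 with Col1a2 0.868. Col4a1, the matrix gene left out of these pairs, had lower r with the other genes of its role, from 0.313 with Lum to 0.592 with Col1a1.

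Of the 13 pairs, 6 joined different cell types. Acta2 and Dcn had r of 0.703 and rho of 0.609 (permutation test, adjusted p = 0.00327 and 0.0112), which was 0.549 without the 2 farthest mice, 0.448 in the first run and 0.833 in the second. Pdgfrb and Dcn had r of 0.662 and rho of 0.661 (permutation test, adjusted p = 0.00962 and 0.00231), with 0.582 without the 2 farthest mice and 0.720 and 0.636 within the runs. Cldn5 and Pdgfrb had r of 0.522 and rho of 0.519 (permutation test, adjusted p = 0.0239 and 0.0208), but 0.331 without the 2 farthest mice, so that this relation rests in part on them. Cldn5 and Dcn had r of 0.519 and rho of 0.605 (permutation test, adjusted p = 0.0279 and 0.0112), with 0.452 without the 2 farthest mice, 0.864 in the first run and 0.337 in the second. Pdgfrb and Acta2 had r of 0.538 and rho of 0.553 (permutation test, adjusted p = 0.0277 and 0.0132), with 0.50 without the 2 farthest mice and 0.518 and 0.551 within the runs. Cldn5 and Acta2 had r of 0.315 and rho of 0.301, and did not pass (permutation test, adjusted p = 0.199 and 0.217). As a description over all pairs, the median r was 0.574 among the 276 pairs of endothelial genes, 0.308 among the 10 pairs of pericyte genes, of which 8 were positive, and 0.770 among the 10 of fibroblast and matrix genes. Between cell types it was 0.441 over the 120 pairs of an endothelial and a pericyte gene, 0.446 over the 120 of an endothelial and a fibroblast or matrix gene, 0.538 over the 15 of a pericyte and a smooth muscle gene, 0.522 over the 25 of a pericyte and a fibroblast or matrix gene, 0.237 over the 72 pairs of an endothelial and a smooth muscle gene, and 0.633 over the 15 pairs of a smooth muscle and a fibroblast or matrix gene. The endothelial genes did not all behave alike with smooth muscle, the pairs running from -0.480 for Slco1c1 with Myh11 to 0.781 for Vwf with Acta2. Vtn, counted here with the pericytes, had its closest r in the fibroblast role with Dcn, 0.908. Rgs5, also of pericytes, had -0.213 with Myh11 and 0.843 with Ly6a.

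**Figure D5:**
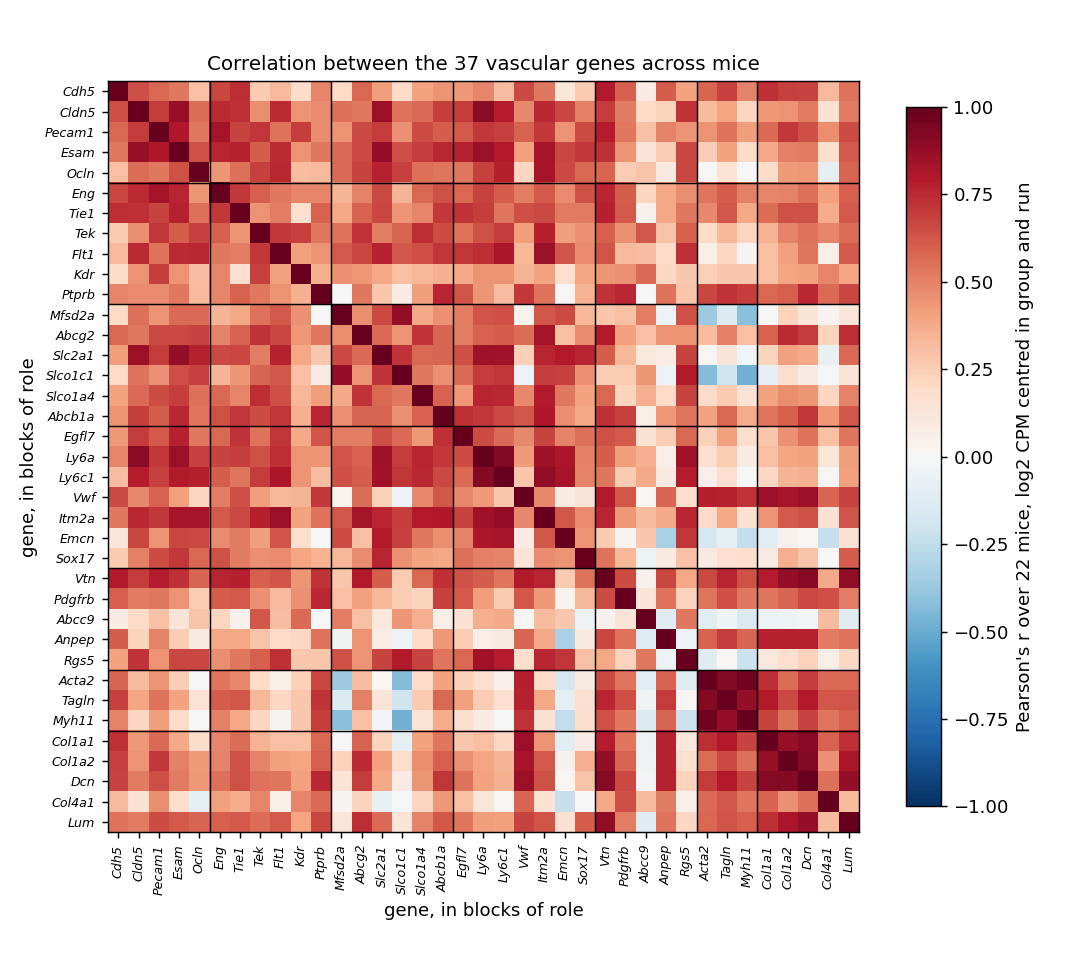
Pearson's r over 22 mice between each pair of the 37 vascular genes, from log2 CPM centred in group and run, with lines between roles, red for positive and blue for negative values. The smooth muscle block and the fibroblast block stand out, with Acta2 and Myh11 at 0.968 and Dcn and Col1a2 at 0.915, and the blue cells include Slco1c1 with Myh11 at -0.480.

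Further genes of the vascular pathways were tested between the groups in the same fit. Of 99 genes in 7 further lists, 97 were tested, Sele and Selp having too few counts, and 51 were below 0 and 46 above it (median -0.010 on the log2 scale). None had an adjusted p under 0.05, and 8 had an unadjusted one, 5 lower and 3 higher in stimulated mice, beside 11.5% of all genes. With group alone 0 of the 97 had an unadjusted p under 0.05, beside 3.61% of all genes, and 40 were below 0 and 57 above it. In growth factor signalling, Vegfa, the ligand of Kdr and Flt1, had 41.9 CPM in controls and 36.4 in stimulated mice (log2 fold change -0.23 ± 0.09, edgeR, p = 0.0215, adjusted p = 0.367). Pdgfb, the endothelial ligand of Pdgfrb, had 33.3 and 39.9 CPM (0.25 ± 0.11, edgeR, p = 0.0289, adjusted p = 0.388). In Wnt signalling at the barrier, Fzd4, the receptor for norrin, had -0.30 ± 0.14 and Sox7, an endothelial transcription factor, -0.31 ± 0.12. Among junction and transport genes, Tjp1, which encodes the scaffold protein ZO-1, had -0.15 ± 0.07, and Slc3a2, the heavy chain of amino acid carriers, 0.12 ± 0.05. Ackr1, a chemokine-binding receptor of venules, was the one gene of endothelial activation with an unadjusted p under 0.05, at 0.27 ± 0.11. In the lists of other mural genes, other fibroblast and meningeal genes, and the basement membrane, none of 15, 17 and 8 genes had one. The smallest p there belonged to Mcam (-0.39 ± 0.20), Col15a1 (-0.43 ± 0.22) and Col4a2 (-0.17 ± 0.10).

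Markers of other cells that the tissue could hold were measured beside these. All 10 oligodendrocyte markers were lower in stimulated mice at an unadjusted p under 0.05, beside 5.45% of all genes, and none at an adjusted one. Within the first run 4 of the 10 were below 0 and 6 above it (median 0.04 on the log2 scale, none at an unadjusted p under 0.05), while within the second all 10 were below 0 (median -1.31) and had an unadjusted p under 0.05, beside 12.4% of all genes in either direction. The median of their log2 fold changes over both runs was -0.69, with a summed level of 3232 to 19856 CPM in controls and 2372 to 5847 CPM in stimulated mice. The 9 astrocyte markers, whose endfeet cover the vessels, were all below 0 (median -0.16) with none at an unadjusted p under 0.05, and their summed level was 3900.5 to 7934 CPM and 3635 to 6945 CPM. Of 8 microglial markers 6 were above 0 (median 0.07), with summed levels of 565 to 936 and 590.4 to 924 CPM. The 5 markers of perivascular macrophages summed to 9.6 to 22.3 and 8.8 to 30.0 CPM. Red blood cell genes, 5 of them, summed to 79.5 to 570.4 CPM in controls and 69.2 to 356.1 CPM in stimulated mice, and all 5 fell in the second run, with a median log2 difference of -1.35. Choroid plexus markers summed to 7.7 to 134.0 CPM in controls (median 17.8) and 6.7 to 18.5 CPM in stimulated mice (median 13.6). Of the 5 of 7 that were tested, 4 were below 0 and 2 had an unadjusted p under 0.05, with a median of -0.20 on the log2 scale, or -0.0026 within the first run and -1.21 within the second. Ttr, which encodes transthyretin, was at -1.88 ± 0.53 (edgeR, p = 0.00165, adjusted p = 0.313). Ependymal markers summed to 2.0 to 7.7 and 2.1 to 4.7 CPM, and the 2 of 4 that were tested were below 0, 1 of them at an unadjusted p under 0.05. Markers of excitatory neurons summed to 2839 to 6711 and 2815 to 7613 CPM, and 3 of 5 were above 0, 1 of them at an unadjusted p under 0.05. Those of inhibitory neurons summed to 577 to 979 and 649.9 to 1036 CPM, and 5 of 6 were above 0, 2 of them at an unadjusted p under 0.05, beside 6.05% of all genes. Within the first run 2 of 5 excitatory and 5 of 6 inhibitory markers were above 0, none and 2 of them at an unadjusted p under 0.05, while within the second 5 of 5 and 4 of 6 were, 1 and none of them at such a p, and 1 inhibitory marker was lower at one. With group alone none of these neuronal markers had an unadjusted p under 0.05. The part of these cells in the vascular values was not tested.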

How the data were processed

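Bulk RNA of the ACC was sequenced in 12 control and 10 stimulated mice, from 5 ng of total RNA a library, as single-end reads of 50 bases. The authors trimmed reads (cutadapt 1.10), aligned them to mm10 (STAR 2.5.3a) and counted them per gene (HTSeq 0.6.1p1, Ensembl 95); the strand setting is not given in the sources used here. The authors deposited whole-number counts, which were tested here, and the same counts divided by size factors as a signal, which was not. Their columns of log2 fold changes and p-values, from DESeq2 1.22.1 with RNA integrity and batch as covariates, were not used. The deposited table has 0 other columns of per-sample values.

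Counts were fitted with edgeR 4.0.16 (TMM, glmQLFit, glmQLFTest) in R 4.3.3 with run and group as terms, and p-values were adjusted by Benjamini-Hochberg over the 17524 genes that reached 10 counts in 10 or more mice. Alternatives were group alone, DESeq2 size factors, the DESeq2 1.42.0 Wald test, no count minimum, 10 counts in every mouse, and the replicate number as a block. The block fit left out controls 11 and 12, whose numbers no stimulated mouse shares. Leaving out each mouse was added after the data were seen. CPM used TMM, and log2 CPM a prior count of 2, or 0.5 as an alternative. All tests were two-sided. The scripts were tested on simulated data. Coordinates, exon lengths and overlaps are from GENCODE M21 on GRCm38, which held 37772 of 37786 identifiers, and promoters from a table of RefSeq sequences in which 24 of the 37 genes were matched. Over 231 pairs of libraries the smallest mean chi-square per gene was 9.19, so no 2 libraries were alike within sampling noise. The labels do not state batch or RNA integrity.

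The 37 genes and the other lists were chosen with earlier results of these data known. All 37 are given. Those in full are the gene of each role with the smallest p and the defining markers Cldn5, Pdgfrb, Acta2 and Dcn; of other lists, at most the 3 genes with the smallest p are named (1 of these is not reported here), and Kdr, Cdh5 and others described further were chosen after their values were seen. Each mouse is 1 sample.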

Additional observations from a re-analysis of the deposited data

Results flagged for a closer look

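Kdr, the main endothelial receptor for VEGF, was the one gene of the 37 for which the group difference differed between the runs of library numbers at an unadjusted p under 0.05. Its log2 fold change, stimulated minus control, was -0.57 ± 0.15 (SE) within the first run, where all 4 stimulated mice were below all 6 controls, and 0.07 ± 0.13 within the second, where the groups overlapped. The test of the difference itself gave 0.69 ± 0.21 (edgeR quasi-likelihood, p = 0.00294, adjusted p = 0.545 over all genes), so it did not hold after adjustment, and 8.01% of all genes had an unadjusted p under 0.05 in that test. In the second run the level of Kdr was 2.97 times that in the first.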

How the results depend on the processing

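The count of 0 vascular genes at an adjusted p under 0.05 between the groups held in every alternative run and in all 22 fits that left out 1 mouse. The count at an unadjusted p under 0.05 was 0 of 37 with group alone against 2, and 1 to 6 when 1 mouse was left out, the most without stimulated replicate 9 (6) and control replicate 4 (5); the number of the 37 below 0 then ran from 19 to 32. Over all genes, 632 had an unadjusted p under 0.05 with group alone and 3687 with no count minimum, against 2015, and 1561 to 2489 when 1 mouse was left out. By the DESeq2 Wald test 33 genes had an adjusted p under 0.05, against 0, and leaving out 1 mouse gave 0 to 1, the 1 without control replicate 9. Rgs5 ran from -0.28 to -0.19 and Ocln from -0.22 to -0.16 on the log2 scale without 1 mouse. Ptprb, Kdr and Abcb1a had an unadjusted p under 0.05 in 1 of the 22 fits, the one without stimulated replicate 9.

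With group alone, without the run term, the log2 fold changes with the other sign were Pecam1 0.0354, Tie1 0.109, Tek 0.0787, Kdr 0.091, Slc2a1 0.014, Ly6c1 -0.102, Ly6a -0.0877, Vwf 0.179, Pdgfrb 0.0846, Vtn -0.0072, Abcc9 0.0354, Anpep 0.0384, Myh11 0.0708, Col4a1 0.0287 and Dcn 0.012. With at least 10 counts in every mouse they were Ly6c1 -0.0082, Ly6a -0.0016, Eng -0.0006 and Vtn -0.0052, with no count minimum Slc2a1 0.0016 and Dcn 0.0108, and Dcn 0.0006 with DESeq2 size factors and 0.0052 in DESeq2. The cause was not tested.

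Same-numbered mice are different animals, and their deviations from group means correlated at -0.133 to 0.268 over 10 numbers, so the replicate numbers share only a number. The fit with the replicate block and the run held only the 10 shared numbers, so controls 11 and 12 were left out of it as well. In it 2 of 37 had an unadjusted p under 0.05, and 18 were below 0 and 19 above it (median 0.0039), against 27 and 10 with all mice and no block. Without a block, leaving out control 11 alone gave 24 below 0, and control 12 alone 25. With the block, Cldn5 (0.018), Pecam1 (0.0195), Tie1 (0.0090), Vwf (0.14), Acta2 (0.46), Tagln (0.33), Myh11 (0.26), Col4a1 (0.017) and Dcn (0.094) changed sign. Over all genes the block gave 1980 with an unadjusted p under 0.05 and 0 adjusted. The spread of smooth muscle genes limits what could be detected in them, with 95% intervals up to 0.78 wide on each side on the log2 scale in the edgeR fit with run and group as terms.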
